A study of Rhodotorula toruloides with 9 samples.

Results

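In the oleaginous basidiomycete yeast R. toruloides IFO0880, 63 genes were abundant at similar mean levels on all 3 carbon sources of the study, d-galacturonic acid (d-galUA), d-glucose (d-glc) and glycerol. A gene was counted among them when its mean FPKM (fragments relative to gene length and to the depth of the library) was at least 1000 on each carbon source and its highest mean was under 2-fold its lowest. Only gene models with a numbered identifier were taken, which gave 63 of 8486 numbered models, or 0.742%, out of 8578 models in all. The levels themselves chose these genes, so their abundance, their near-constancy and the direction in which their means differed are descriptions and carry no test. All 63 genes were annotated from the ortholog column of the study's supplementary gene list, and 59 had an S. cerevisiae ortholog there. The roles given below are those known from S. cerevisiae.

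The libraries were made from mRNA of whole cells of this strain, grown in liquid Yeast Nitrogen Base medium with d-galUA, d-glc or glycerol as the carbon source. The labels gave 3 libraries to d-galUA, 4 to d-glc and 2 to glycerol and say that cells were sampled in log phase, whereas the methods of the study describe 3 cultures per carbon source and sampling at the onset of stationary phase. The library labelled d-glc replicate 4 went against its label, since the glycerol means of the study's gene list were the means of glycerol replicates 1 and 2 and this library. Its log2 profile over all models correlated at 0.987 to 0.988 with the glycerol libraries and 0.876 to 0.878 with the other d-glc libraries. It is therefore counted as a glycerol library and is named "the library labelled d-glc replicate 4" throughout. Its FPKM lay nearer the 2 glycerol libraries in 57 of the 63 genes. The rule that chose them had already counted it as glycerol, so that count is a description. Values with the groups as labelled are given where they bear on a result. The tables implied from 25.8 M to 51.9 M mapped reads (M, 1000000 reads) per library, and libraries of 1 carbon source correlated at 0.978 or above.

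The cytosolic ribosome is built from a small and a large subunit, each of which combines ribosomal RNA with many proteins that are needed in equal numbers. Growing yeast cells spend a large part of their mRNA on these proteins and on the elongation factors that serve the ribosome. Core histones H2A, H2B, H3 and H4 pack DNA into nucleosomes, and their genes are usually transcribed when DNA is replicated. Actin, the plasma membrane proton pump and the mitochondrial ATP synthase are other abundant products of growing yeast cells.

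By role, 38 of the 63 genes encoded cytosolic ribosomal proteins, 19 of the small and 19 of the large subunit. Core histones supplied 7 genes, mitochondrial ATP synthase subunits 4, translation factors 3 and protein-folding chaperones 1, and 10 genes fell outside these lists. The lists were made from ortholog symbols among the 1999 genes of the copy of the study's gene list used here, against 8486 numbered models. Other genes could not enter a list, so a list need not hold a whole family. The share of each list that met the rule differed widely. It was 19 of 33 small-subunit genes, 19 of 43 large-subunit genes, 7 of 11 core histone genes, 4 of 11 ATP synthase genes, 3 of 28 translation factor genes and 1 of 24 chaperone genes. None of the 17 respiratory chain genes and none of the 11 glycolytic genes on the lists was among the 63. Every one of these 28 genes had a mean below 1000 on all 3 carbon sources. The highest mean of the 3 carbon source means among them was 606 in the respiratory chain list and 855 in the glycolysis list.

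**Figure D1:**
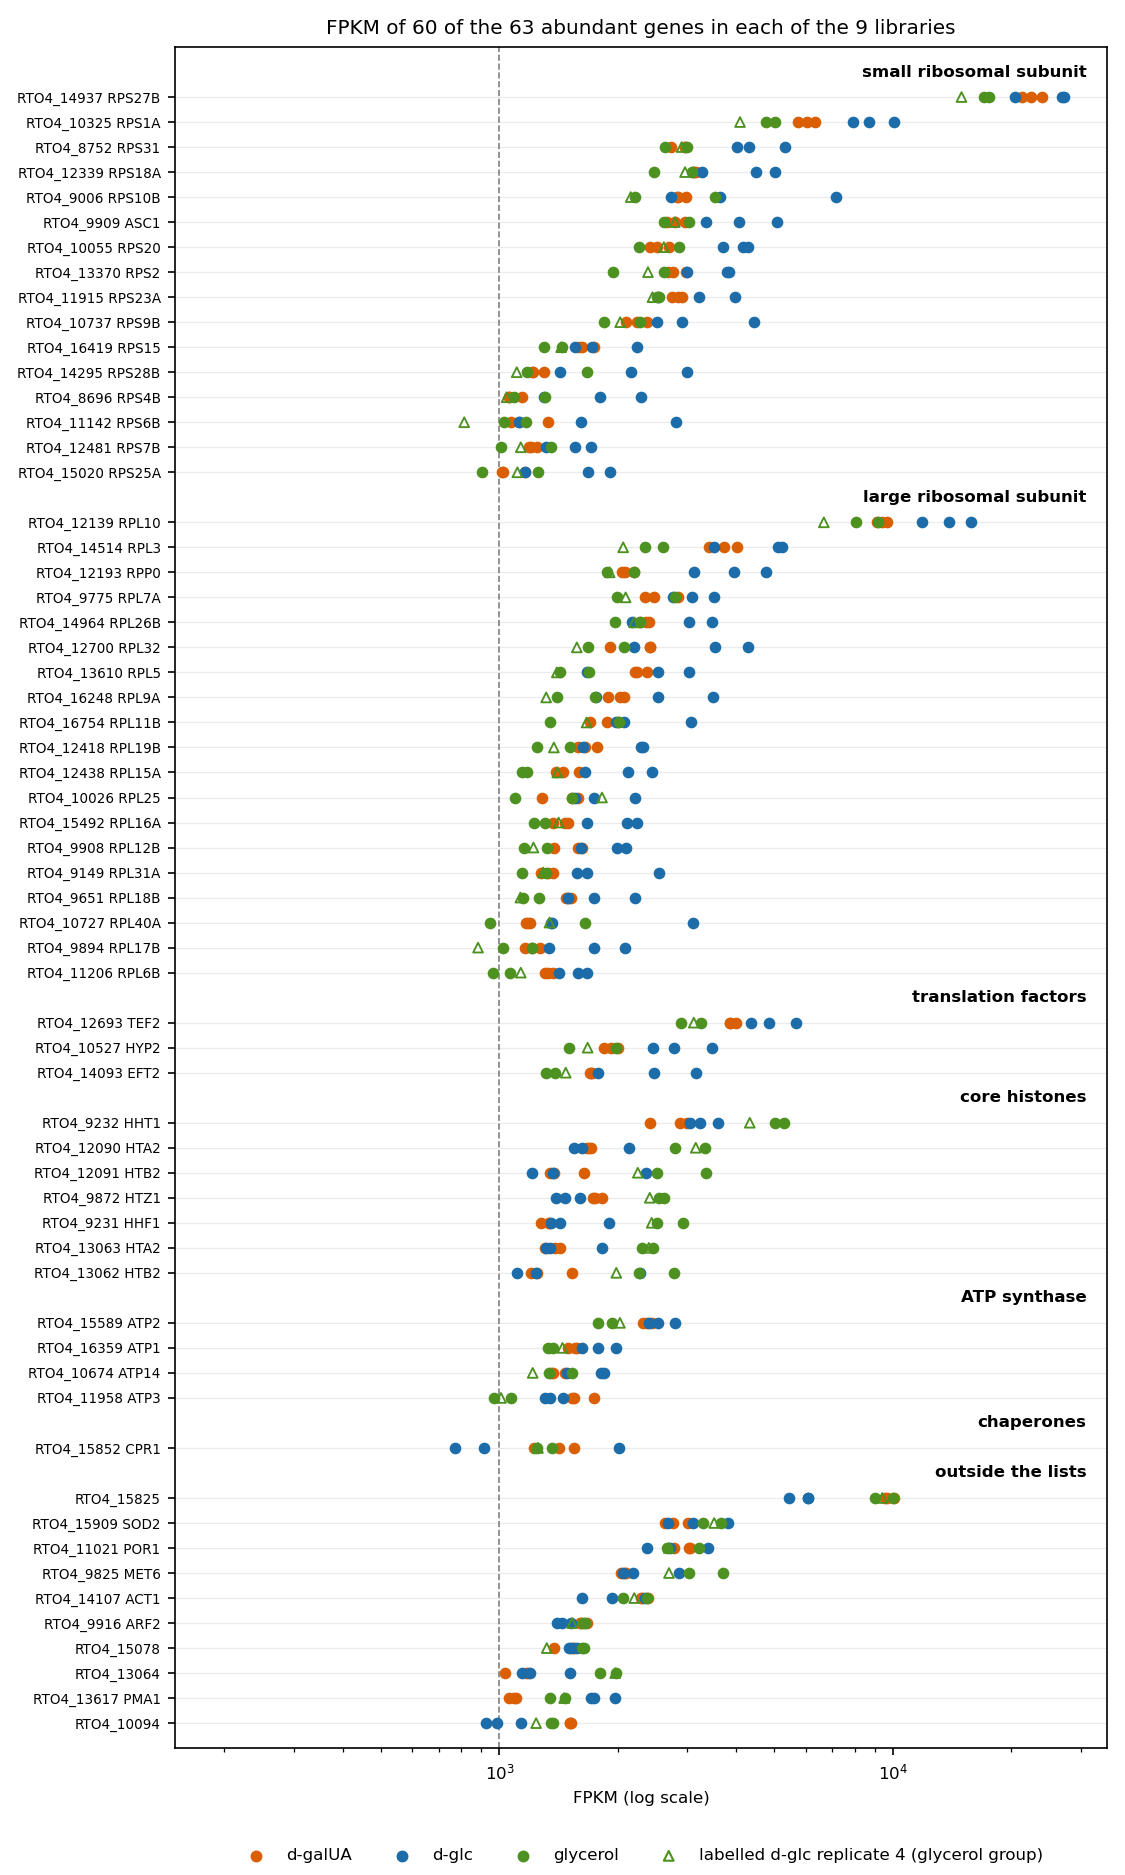
FPKM (log axis) of 60 of the 63 genes in the 9 libraries, grouped by role, with circles coloured by carbon source and an open triangle for the library labelled d-glc replicate 4; the dashed line marks the minimum mean of 1000. Ribosomal protein genes mostly have the d-glc points at the right, and histone genes mostly have the glycerol points at the right.

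On d-galUA the 63 genes held 23.1% ± 0.280 of all deposited TPM (the same estimate as FPKM in a unit that sums to 1 total in every library). Their share was 27.4% ± 2.18 with d-glc as the carbon source and 22.5% ± 1.06 with glycerol (SD, n = 3 libraries each). The d-galUA libraries read 23.3%, 22.8% and 23.3%, the d-glc libraries 28.9%, 24.9% and 28.4%, and the glycerol group 23.7%, 22.3% and 21.6%, the last being the library labelled d-glc replicate 4. Every d-glc library was thus above every other library. In bulk libraries such as these, fewer cells in a given state and less RNA per cell cannot be told apart. Grouped by label, the d-glc libraries averaged 25.9% and the glycerol libraries 23.0%.

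**Figure D2:**
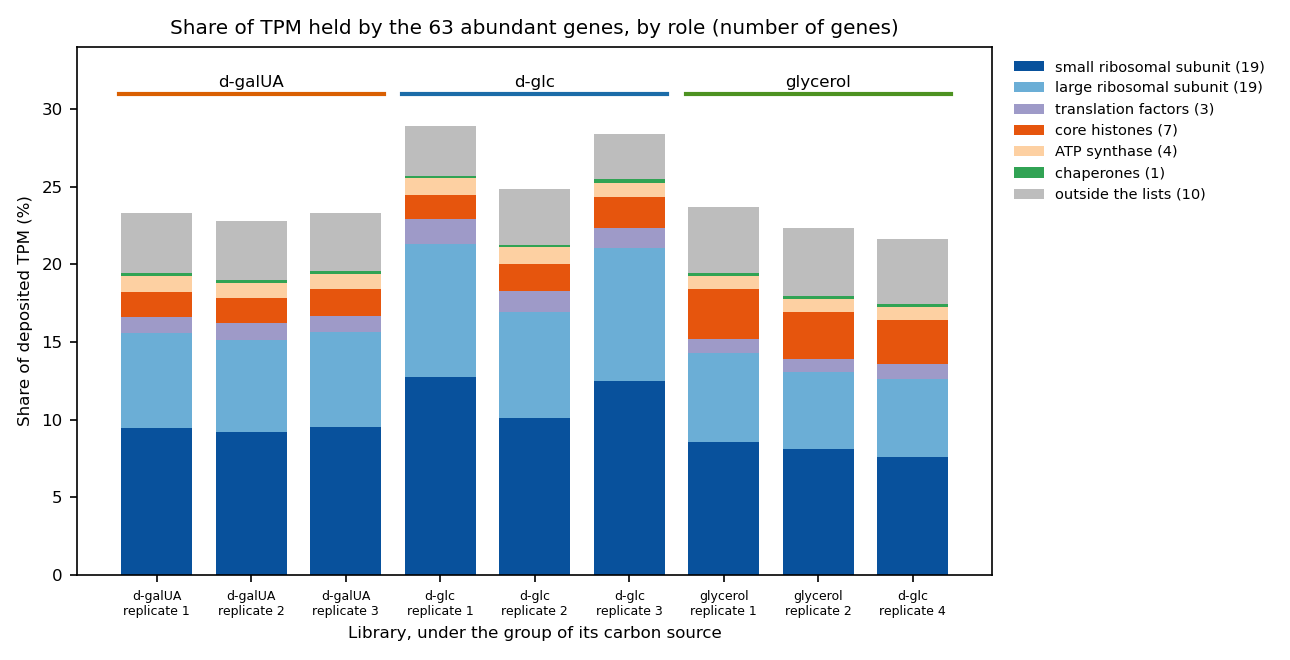
Share of deposited TPM (percent, axis from 0) held by the 63 genes in each library, stacked by role, with the number of genes of each role in the key. The d-glc libraries reach 28.9%, 24.9% and 28.4%, and the histone segment is widest in the 3 libraries of the glycerol group.

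Ribosomal protein and histone genes differed in the carbon source that gave the larger share. The 38 ribosomal protein genes held 15.4% ± 0.256 of TPM with d-galUA, 19.8% ± 2.45 with d-glc and 13.3% ± 0.843 with glycerol. The 7 histone genes held 1.66% ± 0.0865, 1.76% ± 0.224 and 3.02% ± 0.194 in the same order (SD, n = 3). The ribosomal share of d-glc replicate 2, at 16.9%, stood below the 21.3% and 21.0% of the other d-glc libraries and above every library of the other carbon sources. The histone share was 2.82% to 3.21% in the glycerol group and at most 2.00% elsewhere, with no overlap. The 3 translation factors held 1.07%, 1.43% and 0.911% in that order, the 4 ATP synthase genes 0.982%, 1.03% and 0.833%, and the 10 genes outside the lists 3.80%, 3.24% and 4.26%.

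Within a carbon source the 63 genes were most alike on d-galUA, where the median coefficient of variation over the 3 libraries was 4.46%, against 18.6% on d-glc and 10.05% on glycerol. Other gene models with a mean of at least 100 on every carbon source, 683 in number, gave medians of 4.15%, 15.0% and 7.71%. Of the 3 d-glc libraries, d-glc replicate 2 was the lowest in 36 of the 38 ribosomal protein genes and in 38 of all 63 genes. An FPKM of 1000 or more was met in all 9 libraries by 54 of the 63 genes, and 13 of the 567 single values fell below it, in 9 genes.

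The most abundant gene was RTO4_14937 (scaffold 6, 1122107 to 1122716, plus strand, in the version 4 gene models), ortholog of RPS27, a zinc-binding protein of the small subunit. It ranked at the top of all gene models on each carbon source. Its FPKM was 22404, 21290 and 23952 on d-galUA, 26934, 20417 and 27184 on d-glc, and 17044, 17544 and 14937 in the glycerol group. The glycerol libraries lay below all others, while d-galUA and d-glc overlapped through d-glc replicate 2. The highest of the 3 means was 1.51-fold the lowest.

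RTO4_12139 (scaffold 2, 545294 to 546306, plus strand), ortholog of the large-subunit protein RPL10, came next by mean level. RPL10 joins the large subunit late in its assembly. Its FPKM was 9098, 9364 and 9644 on d-galUA, 15800, 11864 and 13887 on d-glc, and 9185, 8038 and 6674 in the glycerol group. All 3 d-glc libraries were above the rest, and d-galUA and glycerol overlapped.

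The small-subunit gene RTO4_10325 (RPS1) was a gene in which the 3 carbon sources did not overlap at all. It read 6330, 5752 and 6057 on d-galUA, 10046, 7908 and 8709 on d-glc, and 5007, 4753 and 4087 in the glycerol group, a 1.93-fold range of means. By mean level the lowest gene of the set was RTO4_15020 (RPS25) for the small subunit and RTO4_11206 (RPL6) for the large subunit. RPS25 read 1164, 1013 and 1019 on d-galUA, 1678, 1163 and 1905 on d-glc, and 1250, 905 and 1111 in the glycerol group, and all 3 carbon sources overlapped. RPL6 read 1366, 1306 and 1330, then 1587, 1413 and 1674, then 1063, 961 and 1133, in the same order. The RPL6 libraries fell into 3 groups without overlap, with d-glc on top and glycerol at the bottom. Between RPS27 and RPS25 the mean level per length therefore spanned from 21301 to 1245, although the ribosome holds each of these proteins in the same number.

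Of the 38 ribosomal protein genes, 37 had their highest mean on d-glc, and 31 had their lowest on glycerol. The ratio of the d-glc to the glycerol mean had a median of 1.54 and ran from 1.24 to 1.98. The ratio of d-glc to d-galUA had a median of 1.38 (0.984 to 1.87) and that of d-galUA to glycerol a median of 1.11 (0.9004 to 1.59). Small-subunit and large-subunit genes gave the same median d-glc to glycerol ratio of 1.54. With the groups as labelled, 34 of the 38 still had their highest mean on d-glc, and without d-glc replicate 2 all 38 did.

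**Figure D3:**
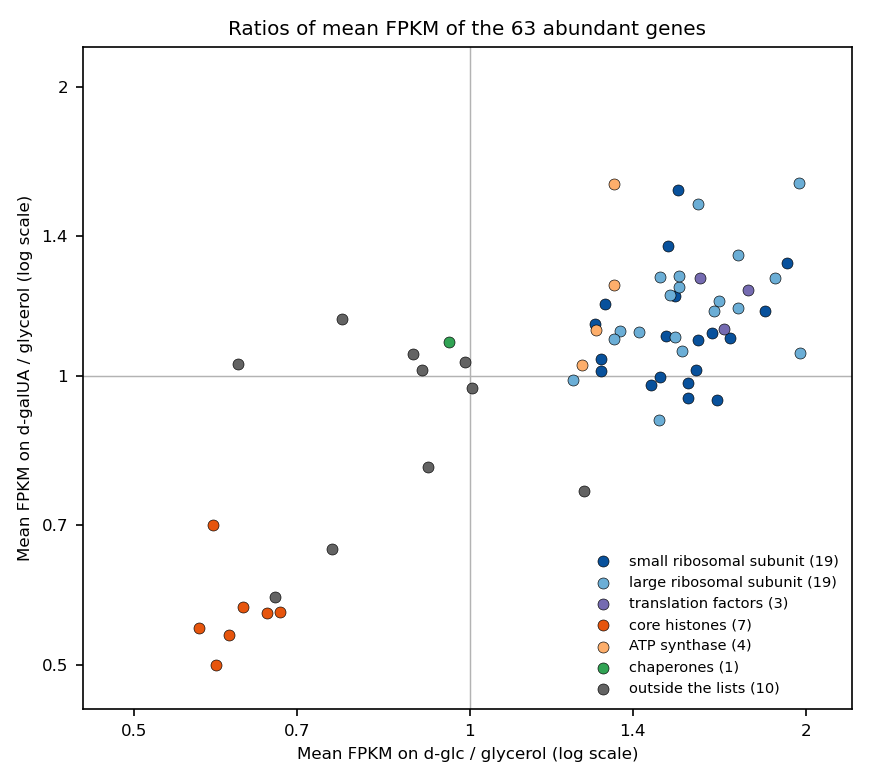
Ratio of mean FPKM on d-glc to glycerol (x axis) against that on d-galUA to glycerol (y axis) for the 63 genes, both on log axes, with 1 point per gene coloured by role. Ribosomal protein genes lie to the right, between 1.24 and 1.98 on the x axis, and the 7 histone genes lie at the lower left, between 0.572 and 0.676; the rule keeps both ratios between 0.5 and 2.

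RPP0, RPL3 and RPL32 were, with RPS1, among the 5 genes that lay nearest the fold limit from inside. RTO4_12193 encodes the ortholog of RPP0, the core of the stalk on which elongation factors land, and read 2082, 2043 and 2198 on d-galUA, 3943, 3127 and 4756 on d-glc, and 2197, 1880 and 1906 in the glycerol group. Every d-glc library was above the rest, and the ratio of the highest to the lowest mean was 1.98. RTO4_14514 (RPL3, a protein near the peptidyl transferase centre) read 3712, 3408 and 4021 on d-galUA, 5226, 3520 and 5109 on d-glc, and 2608, 2349 and 2063 in the glycerol group, where all libraries were below the rest, a 1.97-fold range. RTO4_12700 (RPL32) read 2407, 1914 and 2414, then 3522, 2203 and 4286, then 2076, 1680 and 1573, a 1.88-fold range of means. Its d-galUA libraries overlapped both d-glc and glycerol, which did not overlap each other.

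Seen over the whole lists, the 76 listed genes of the cytosolic ribosomal proteins spread over a far wider range than the set. The mean of the 3 carbon source means ran from 47.6 for RTO4_16201, a further RPS28-type gene, to 21301 for RPS27, with a median of 1329. In 20 genes the mean reached 1000 on some carbon sources only, and in 15 it stayed below 1000 on all 3. In 69 of the 76 genes the highest mean was under 2-fold the lowest, and in 73 the highest mean was that on d-glc. Of all 8578 gene models, 5158 were also under 2-fold with every mean above 0. How many of all gene models were highest on d-glc is not given here. Across these 76 genes the level and the length of the gene span gave a Spearman's rho of -0.01 and a Pearson's r of -0.16, as a description over genes that share libraries.

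**Figure D4:**
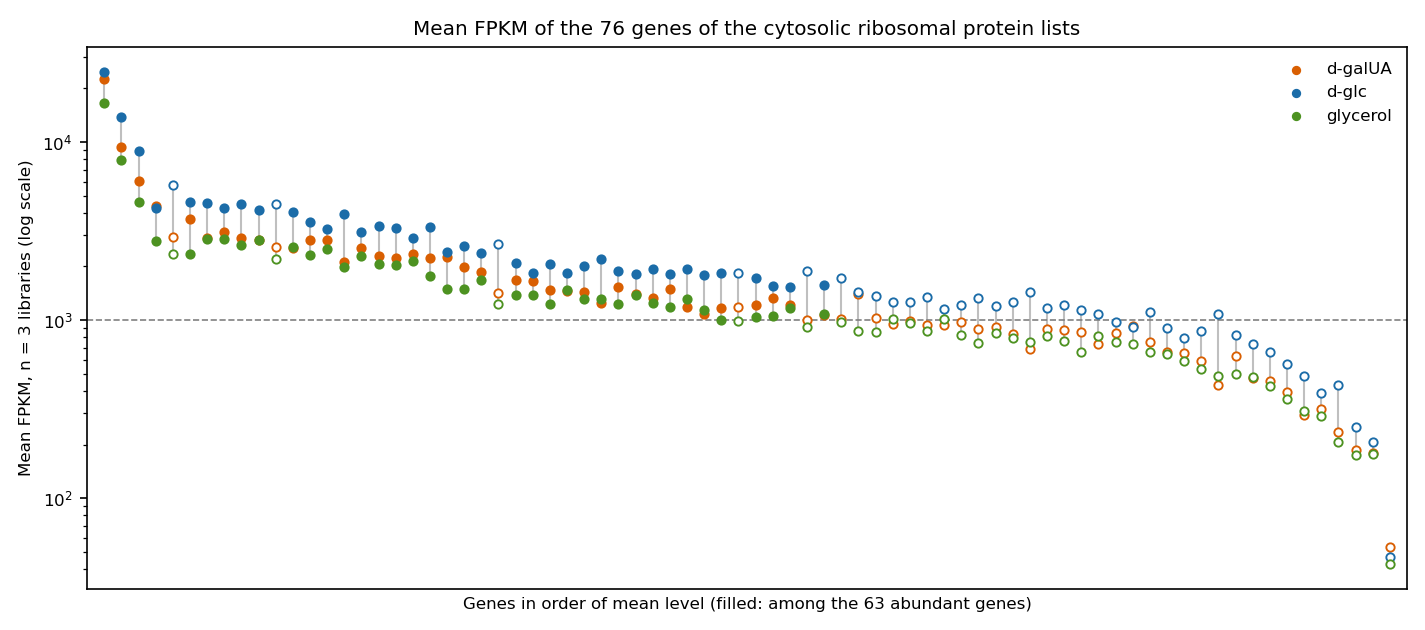
Mean FPKM (log axis, n = 3 libraries per carbon source) of the 76 genes on the ribosomal protein lists, ordered by their mean level, with filled points for the 38 genes of the set, open points for the others and a dashed line at 1000. The blue d-glc point is the highest in 73 of the 76 genes, and levels fall from 21301 to 47.6.

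Over all gene models tested, limma (a linear model across all genes, on log2(FPKM + 1), call at Benjamini-Hochberg adjusted p under 0.05) called 26.7% higher on d-glc than on glycerol and 26.7% lower. Of the 63 genes, 38 were called higher and 10 lower, and of the 76 ribosomal protein genes 54 were called higher and 0 lower, with a median log2 difference of 0.61 against -0.02 over all genes tested. The rule used these same values, so nothing is read from the counts. At an unadjusted p under 0.05 limma gave 59 of the 76 higher and 0 lower, and the test of Ballgown, the study's tool, written out here on the same values, called 12 higher and 0 lower. For d-glc over d-galUA 25.8% of all genes were called higher and 24.9% lower, against 17 and 2 of the 63 genes, and the ribosomal protein genes gave 27 higher and 0 lower by limma (38 and 0 unadjusted, 6 and 0 by Ballgown). For d-galUA over glycerol the background was 25.2% higher and 24.1% lower, against 6 and 10 of the 63 genes, and the ribosomal protein genes gave 8 higher and 0 lower (11 and 0 unadjusted, 13 and 0 by Ballgown). With the groups as labelled limma called 0 ribosomal protein genes in any of the 3 comparisons, in which 4, 2 and 2 had an unadjusted p under 0.05, and all genes gave 1 call between d-glc and glycerol in place of 4530. Over all 8479 genes tested, Ballgown made 3022, 3467 and 4242 calls, higher and lower together, in the order of comparisons used here. These totals are the background for its counts in every list, here and below. With the groups as labelled, 1407, 1546 and 1529 of all genes were higher by limma at an unadjusted p under 0.05. The 3 comparisons share libraries and are not independent of each other.

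The counts of called ribosomal protein genes moved with single libraries. Higher calls on d-glc than on d-galUA were 59 of 76 without d-glc replicate 2 and 12 without d-galUA replicate 2. Those on d-glc than on glycerol were 32 without glycerol replicate 2. In the same order these fits called 4366, 3613 and 4093 of all genes, higher and lower together. Without the library labelled d-glc replicate 4 the ribosomal protein genes gave 37, 25 and 5 higher calls. The order was d-glc over glycerol, d-glc over d-galUA and d-galUA over glycerol. All genes gave 4002, 4212 and 3694 calls there, higher and lower together.

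Counted by library, every d-glc library was above the other 6 in 20 of the 63 genes, against 17.4% of all genes tested. These were 15 ribosomal protein genes, the 3 translation factors, ATP1 and PMA1. Every glycerol library was below the other 6 in 17 genes (background 17.7%), 12 of them ribosomal, and above them in 6 genes (background 17.1%). Every d-galUA library was above the others in 2 genes (16.1%) and below them in 3 (14.3%), and every d-glc library was below the others in 4 (15.3%). These counts rest on the values the rule used and are given without a reading.

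The 3 translation factors of the set were all highest on d-glc and lowest on glycerol by their means. RTO4_12693 (TEF1 and TEF2), elongation factor eEF1A, which brings aminoacyl-tRNA to the ribosome, read 3996, 3850 and 3863 on d-galUA, 5682, 4361 and 4833 on d-glc, and 3245, 2893 and 3118 in the glycerol group. The 3 carbon sources did not overlap. RTO4_14093 (EFT1 and EFT2), elongation factor eEF2, which moves the ribosome along the mRNA, read 1696, 1705 and 1715, then 3159, 2466 and 1780, then 1310, 1384 and 1474, again without overlap. RTO4_10527 (HYP2), the factor eIF5A, had a mean of 1922 with d-galUA, 2906 with d-glc and 1719 with glycerol. Over the whole list of 28 translation factor genes limma called 21 higher and 1 lower on d-glc than on glycerol. It called 17 higher and 1 lower on d-glc than on d-galUA, and 12 and 2 in the comparison of d-galUA with glycerol. Over all genes tested the shares were 26.7% and 26.7%, 25.8% and 24.9%, and 25.2% and 24.1% in that order. With the groups as labelled, limma gave 10 and 0, 5 and 1, and 2 and 0 of the list at an unadjusted p under 0.05. All 8479 genes tested gave 1407 and 843, 1546 and 1584, and 1529 and 1358 with the same groups and p. The list's mean levels ran from 58.7 to 3982, with a median of 206, and the 3 genes of the set were its highest.

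All 7 histone genes had their highest mean on glycerol. The ratio of the glycerol to the d-glc mean had a median of 1.64 (1.48 to 1.75) and that of glycerol to d-galUA a median of 1.76 (1.43 to 2.00). The direction held in all 7 genes with the groups as labelled and without the library labelled d-glc replicate 4. In 5 of the 7 genes every glycerol library was above the other 6, against 17.1% of all genes tested. The rule used these same values, so this count is a description.

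Histones H3 and H4 lay side by side on scaffold 1. RTO4_9232 (HHT1 and HHT2, histone H3; 2068259 to 2069410, plus strand) read 2419, 2875 and 2997 on d-galUA, 3052, 3239 and 3585 on d-glc, and 5009, 5276 and 4327 in the glycerol group. RTO4_9231 (HHF1 and HHF2, histone H4; 2067615 to 2068258, minus strand) read 1338, 1272 and 1335, then 1352, 1427 and 1898, then 2934, 2517 and 2437. In both genes the order was glycerol above d-glc above d-galUA, without overlap. The H4 gene lay nearest the fold limit of the rule, at 1.9997-fold.

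Histones H2A and H2B were each represented by 2 genes, in 2 divergent H2A and H2B pairs. On scaffold 2, RTO4_12090 (H2A) read 1670, 1704 and 1689 on d-galUA, 1546, 1620 and 2131 on d-glc, and 3326, 2787 and 3154 in the glycerol group. Its neighbour RTO4_12091 (H2B) read 1375, 1345 and 1637, then 1213, 1369 and 2352, then 3352, 2515 and 2247. Glycerol was above all else for the H2A gene, whereas for the H2B gene d-glc replicate 3 exceeded the library labelled d-glc replicate 4. On scaffold 3, RTO4_13063 (H2A) read 1307, 1386 and 1422 on d-galUA, 1316, 1345 and 1823 on d-glc, and 2460, 2304 and 2396 in the glycerol group. Its neighbour RTO4_13062 (H2B) read 1249, 1203 and 1533, then 1109, 1240 and 2275, then 2780, 2269 and 1981. The overlap was again in the H2B gene alone and again came from d-glc replicate 3. How reads that match both copies of a histone were divided is not given in the sources used here, so the values of the 2 copies are uncertain.

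RTO4_9872 (HTZ1, the H2A.Z variant found at promoter nucleosomes) read 1726, 1744 and 1825 on d-galUA, 1464, 1601 and 1391 on d-glc, and 2616, 2547 and 2410 in the glycerol group. It was the only histone gene of the set with its lowest mean on d-glc, and its carbon sources did not overlap. Over the 11 genes of the histone list, limma called 10 lower and 0 higher on d-glc than on glycerol, and all 11 lower and 0 higher with d-galUA than with glycerol, with the same counts at an unadjusted p under 0.05. Ballgown called 4 and 9 lower and 0 higher. Over all genes tested limma called 26.7% lower on d-glc than on glycerol and 24.1% lower with d-galUA than with glycerol. Between d-glc and d-galUA limma called 1 histone gene higher and 0 lower on d-glc (1 and 1 unadjusted, 0 and 0 by Ballgown). The shares over all genes tested were 25.8% higher and 24.9% lower there. With the groups as labelled 0 were called between d-glc and glycerol (4 lower at an unadjusted p under 0.05). In that grouping 3 were called lower with d-galUA than with glycerol. Of all 8479 genes tested, 843 were lower on d-glc than on glycerol at that unadjusted p. Between d-galUA and glycerol all genes gave 1564 calls, higher and lower together.

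The 4 ATP synthase genes encode subunits of the enzyme that makes ATP from the mitochondrial proton gradient. RTO4_15589 (ATP2, the catalytic beta subunit) read 2446, 2368 and 2313 on d-galUA, 2797, 2524 and 2401 on d-glc, and 1930, 1776 and 2024 in the glycerol group, which lay below the rest. RTO4_11958 (ATP3, the gamma subunit) read 1738, 1550 and 1529, then 1448, 1345 and 1308, then 1067, 967 and 1009. It was highest on d-galUA, without overlap between the carbon sources. The other 2 were ATP1 and ATP14, whose means were 1539, 1791 and 1379 for ATP1 and 1396, 1714 and 1360 for ATP14, given in the same order of carbon sources. All 4 were lowest on glycerol by their means. Over all genes tested limma called 26.7% higher and 26.7% lower on d-glc than on glycerol. The shares were 25.2% and 24.1% for d-galUA over glycerol, and 25.8% and 24.9% for d-glc over d-galUA. Of the 11 genes on the list, limma called 7 higher and 0 lower on d-glc than on glycerol (9 and 0 unadjusted, 2 and 0 by Ballgown), 6 higher and 0 lower with d-galUA than with glycerol (6 and 0 unadjusted, 5 and 0 by Ballgown), and 0 either way between d-glc and d-galUA (1 and 0 unadjusted, 1 and 0 by Ballgown).

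The 1 chaperone of the set was RTO4_15852, ortholog of CPR1, a cyclophilin that helps proteins fold by turning proline bonds. It read 1226, 1420 and 1546 on d-galUA, 773, 915 and 2008 on d-glc, and 1361, 1247 and 1253 in the glycerol group. The means differed by 1.13-fold only, yet the d-glc libraries held both the lowest and the highest single values. Of the 24 chaperone genes limma called 12 higher and 2 lower on d-glc than on glycerol, 5 higher and 9 lower on d-glc than on d-galUA, and 12 higher and 0 lower with d-galUA than with glycerol (13 and 0 unadjusted, 12 and 0 by Ballgown). Over all genes tested the shares called higher and lower were 26.7% and 26.7% for d-glc over glycerol. They were 25.8% and 24.9% for d-glc over d-galUA, and 25.2% and 24.1% for d-galUA over glycerol. The 2 lists without a gene in the set are given for comparison. For d-glc over d-galUA the 11 glycolytic genes gave 8 higher and 2 lower and the 17 respiratory chain genes 1 higher and 9 lower. For d-glc over glycerol these were 4 and 2, and 2 and 4. For d-galUA over glycerol the glycolytic genes gave 0 higher and 6 lower (0 and 6 unadjusted and by Ballgown 0 and 6), and the respiratory chain genes 5 higher and 0 lower (7 and 0 unadjusted, 8 and 0 by Ballgown).

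Of the 10 genes outside the lists, 6 had an ortholog. The most even was RTO4_11021 (POR1, the voltage-dependent channel of the outer mitochondrial membrane), with 3037, 3045 and 2778 on d-galUA, 2718, 3394 and 2374 on d-glc, and 3210, 2668 and 2695 in the glycerol group, a 1.04-fold range of means. RTO4_9916 (ARF1 and ARF2, small GTPases of vesicle budding) read 1611, 1604 and 1666, then 1404, 1518 and 1440, then 1626, 1654 and 1530, within 1.12-fold, yet with all d-glc libraries below the rest. RTO4_14107 (ACT1, actin) read 2382, 2293 and 2307, then 1936, 2343 and 1619, then 2056, 2370 and 2201, within 1.18-fold and overlapping throughout. POR1, ARF and ACT1 were among the 5 most even genes of the set, together with CPR1 and RTO4_15078.

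RTO4_15909 (SOD2, the mitochondrial superoxide dismutase) read 3009, 2766 and 2632 on d-galUA, 2685, 3804 and 3104 on d-glc, and 3655, 3288 and 3513 in the glycerol group. The glycerol libraries were above the d-galUA libraries, and d-glc overlapped both. RTO4_9825 (MET6, the enzyme of the last step of methionine synthesis) read 2031, 2084 and 2101, then 2854, 2180 and 2055, then 3023, 3700 and 2697. Its mean was highest on glycerol, by 1.52-fold over d-galUA, and d-glc overlapped both. RTO4_13617 (PMA1 and PMA2, the plasma membrane proton pump) read 1103, 1060 and 1088, then 1970, 1734 and 1711, then 1347, 1471 and 1460. The pump gene was highest on d-glc and lowest on d-galUA, without overlap.

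The other 4 genes had no ortholog in the list and no name in the sources used here. RTO4_15825 (scaffold 8, 317790 to 319145, plus strand) ranked after RPS27 and RPL10 in the set by mean level and read 10049, 9632 and 9565 on d-galUA, 5447, 6086 and 6100 on d-glc, and 10027, 9003 and 9393 in the glycerol group. All d-glc libraries were below the rest, at a ratio of the d-galUA to the d-glc mean of 1.66. RTO4_10094 read 1509, 1523 and 1511, then 1135, 988 and 924, then 1353, 1370 and 1239, with d-galUA on top, d-glc lowest and no overlap. RTO4_15078 was the most even gene of all, within 1.03-fold, at 1375, 1542 and 1539, then 1523, 1578 and 1501, then 1621, 1643 and 1319. RTO4_13064 (scaffold 3, 796428 to 796805, plus strand) read 1035, 1182 and 1169, then 1142, 1196 and 1509, then 1800, 1981 and 1969, so that all glycerol libraries were above the rest. It was the gene model next to the H2A gene RTO4_13063, 1911 bp away on the same strand.

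The 63 genes lay on 15 of the 29 scaffolds, 35 on the plus and 28 on the minus strand, with 12 on scaffold 2. Their gene spans had a median of 1356 bp, against 1786 bp over all gene models. In 6 cases 2 genes of the set were direct neighbours, and 5 of these pairs were divergent, meaning transcribed away from each other, against 27.9% of all 8549 neighbouring pairs of gene models. Among them were the H3 and H4 genes, both H2A and H2B pairs and RPL12 with ASC1 (RTO4_9908 and RTO4_9909), the last a ribosome-bound scaffold protein. Among neighbours that were both on the ribosomal protein lists, 7 of 9 pairs were divergent and the other 2 convergent. The distance between the gene models of the divergent ribosomal pairs ran from an overlap of 23 bp (RPL37 and RPS31) to 1498 bp (RPL12 and ASC1). Members of a divergent pair could still differ in level. The means of RPS13 were 849, 982 and 752 in the order used above, and those of its neighbour RPS6 were 1172, 1846 and 1004.

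In all, 10 genes of the set overlapped a neighbouring model, by 2 to 299 bp, and such overlaps also touched 24.2% of all gene models. In 6 genes of the set d-glc replicate 3 was the highest d-glc library, at 2-fold or more over the lowest. They were RPS10 (3639, 2724 and 7161), RPS6 (1611, 1120 and 2806), RPS28 (2164, 1422 and 2999), RPL40 (1357, 1354 and 3105), the scaffold 3 H2B gene and CPR1. The library d-glc replicate 3 was also the deepest, at 51.9 M mapped reads, and the part of depth in these values was not tested. RPL40 and RPS31 are made as fusions to ubiquitin, and how reads of the shared ubiquitin part were divided is not given in the sources used here, so their levels are uncertain too.

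The rule left out 10 gene models that reached 1000 on all 3 carbon sources but differed 2-fold or more between means. The most abundant was RTO4_12704 (PET9, the carrier that exchanges ADP and ATP across the inner mitochondrial membrane), which read 8586, 9658 and 9791 on d-galUA, 11849, 8554 and 11486 on d-glc, and 4512, 4532 and 4003 in the glycerol group, a 2.44-fold range. Ribosomal protein genes made up 3 of the 10. RPL1 (RTO4_16003) read 2932, 2888 and 2982, then 6542, 4683 and 6055, then 2426, 2455 and 2209, or 2.44-fold. RPL14 (RTO4_15054) read 1193, 1460 and 1585, then 3792, 1390 and 2828, then 1357, 1310 and 1036, or 2.16-fold, and RPS12 (RTO4_8844) read 2632, 2500 and 2555, then 4281, 2884 and 6353, then 2721, 1815 and 2062, or 2.05-fold. All 3 had their highest mean on d-glc and their lowest on glycerol. The Hsp70 chaperone RTO4_16570 (SSA1 among its orthologs) read 2286, 2286 and 2430, then 5226, 3221 and 3262, then 1539, 1833 and 1596, or 2.36-fold.

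The remaining 5 had no ortholog in the list. RTO4_16820 read 2585, 2590 and 2610, then 1659, 1399 and 1653, then 4234, 3930 and 3588, and RTO4_14226 read 1022, 1040 and 992, then 1430, 1299 and 1268, then 2604, 2748 and 2360, both highest on glycerol without overlap. RTO4_13371 read 2467, 3029 and 3742, then 3320, 2285 and 3138, then 1241, 1286 and 720. RTO4_CAND64 read 2447, 3229 and 3932, then 3527, 2394 and 1958, then 1231, 1325 and 746. These 2 lay on either side of the RPS2 gene of the set (RTO4_13370) on scaffold 3 and both were lowest on glycerol without overlap. RTO4_CAND77 read 2668, 2744 and 2158, then 4621, 3117 and 10244, then 3818, 2319 and 3056, with its peak in d-glc replicate 3.

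The edges of the rule were close. The genes just inside the minimum were RPS6 at a lowest mean of 1004, ATP3 at 1015, RTO4_10094 at 1015, RPL17 at 1039 and RPL6 at 1052. Those just outside were ATP5 at 991, ILV5 at 985, RPL23 at 983, a citrate synthase (CIT1 among its orthologs, RTO4_11331) at 982 and RPL28 at 972. Just inside the fold limit were the H4 gene at 1.9997-fold, RPP0 at 1.98, RPL3 at 1.97, RPS1 at 1.93 and RPL32 at 1.88, and just outside were RPS12 at 2.05, RPL14 at 2.16, RTO4_16570 at 2.36, and RPL1 and PET9 at 2.44. By mean level, 59 of the 63 genes were within the top 100 of all gene models on every carbon source. The top 20 held 9 of them for d-galUA, 15 for d-glc and 13 for glycerol.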

How the data were processed

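Per the labels, mRNA was selected with beads from total RNA and made into TruSeq libraries. The labels name a RiboPure kit and the methods of the study an RNeasy kit for the extraction. The authors mapped 50-bp single-end reads with HISAT2 2.1.0 and estimated abundances against the version 4 gene models with StringTie 1.3.3b. The use of strand and of reads that match several genes is not given in the sources used here. The deposited FPKM is relative to gene length and mapped reads, the deposited TPM is scaled to 1 total in every library, and the deposited coverage is the mean read depth over a gene. The tables hold no counts, so mapped reads were worked out from coverage and FPKM. Such levels are relative to the rest of the library, and no spike-in is described.

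A library was placed with the group whose means in the study's gene list matched the mean of 3 libraries. Mean FPKM gave the set, by a minimum of 1000 on every carbon source and a limit of 2-fold. limma 3.58.1 in R 4.3.3 was fitted to log2(FPKM + 1) over all 9 libraries with a mean-variance trend, on the 8479 gene models above 0 in 1 or more libraries, and no fold criterion. A fold change on the log2(FPKM + 1) scale understates the change of low genes. The script was tested on simulated data. The labels do not say that replicates are separate cultures, although the methods do, so p-values measure the spread between these libraries. Genes given in every library were the 5 most abundant, the 5 most and 5 least even, the highest and lowest of each list, every histone, every gene outside the lists, and those above the minimum but past the fold limit. RPS10, RPS6, RPS28, RPL40, HYP2, ATP1, ATP14 and the neighbours were chosen after their values were seen, and a few genes of the set enter its counts but are not reported here by name. The set and the lists were chosen with earlier results of these data known. Alternatives were other thresholds, TPM, other scalings and pseudocounts, no trend, the test of Ballgown, a filter on low values, the groups as labelled, a replicate block and leaving out each library.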

Additional observations from a re-analysis of the deposited data

Results flagged for a closer look

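Among the values of the 63 genes and their summed share in the 4 libraries labelled d-glc, 64 in all, 2 had 1 library far from the other 3, or 3.12%. The chance rate of about 1 in 20 holds for libraries of 1 condition and cannot be set against this. Of the 4 libraries 1 is counted here as glycerol, and the rule keeps the d-glc and glycerol means of each gene within 2-fold. RTO4_15825 read 9393 in the library that carries the label d-glc replicate 4, against 5447 to 6100 in d-glc replicates 1 to 3. RPL40 (RTO4_10727) read 3105 in d-glc replicate 3, against 1340 to 1357 in the remaining libraries with this label.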

How the results depend on the processing

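Of 218 alternative values, 185 stayed within 1.5 times of the main count or, for shares of TPM, within the replicate SD, and 33 moved. Only the size of a count was compared, not the genes behind it. The set of 63 genes became 123 with a minimum of 500, 22 with a minimum of 2000, 21 with a limit of 1.5-fold and 98 on TPM, 62 of them shared with the main set. It held 55 to 65 genes when 1 library was left out, 55 both without d-glc replicate 2 and without glycerol replicate 1, and 69 with the groups as labelled, 61 of them shared. Its share of TPM on d-galUA was 23.7% of the numbered models alone, and with 1 library left out the shares were 23.1% to 23.3% on d-galUA, 26.6% to 28.6% on d-glc and 21.97% to 23.0% on glycerol.

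With the groups as labelled limma called 1 gene between d-glc and glycerol, 1893 between d-glc and d-galUA and 1564 between d-galUA and glycerol. Ribosomal protein genes were then called 0 times in each comparison, and histone genes 0 times lower on d-glc and 3 times lower with d-galUA than with glycerol. By Ballgown the ribosomal protein genes gave 12, 6 and 13 higher calls for d-glc over glycerol, d-glc over d-galUA and d-galUA over glycerol. Its calls over all genes, higher and lower together, were 3022, 3467 and 4242 in that order. Ballgown called 4 histone genes lower on d-glc than on glycerol. Without the trend 1 histone gene was lower on d-glc than on d-galUA. With 1 library left out, the ribosomal counts ran from 32 to 66, 12 to 59 and 3 to 18, the histone counts from 8 to 11 lower on d-glc than on glycerol, 0 to 1 lower on d-glc than on d-galUA and 8 to 11 lower with d-galUA than with glycerol, and all calls from 4002 to 4715, 3613 to 4366 and 3447 to 4584. The highest ribosomal counts for d-glc over d-galUA and for d-galUA over glycerol, 59 and 18, were without d-glc replicate 2. The cause of these moves was not tested.

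Same-numbered libraries deviated from their group means with correlations from -0.14 to 0.20, so replicate numbers showed no strong shared deviation. Whether the libraries were paired by culture or preparation cannot be told from this. With the replicate number as a block, higher ribosomal calls were 32 for d-glc over glycerol, 27 d-glc over d-galUA and 2 d-galUA over glycerol. Calls over all genes, higher and lower together, were 3651, 4034 and 3268 in that order. The library labelled d-glc replicate 4 is alone in its number there and adds nothing to that fit.

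The alternatives on the genes highest on d-glc or glycerol were added after seeing the data. They left 41 to 45 of the 63 genes and 34 to 38 of the 38 ribosomal protein genes highest on d-glc, and 7 of 7 histone genes highest on glycerol. Without counts, no interval for single values can be given.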
